A study of Rattus norvegicus with 3 samples.

Results

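The voltage-gated sodium and calcium channel genes were compared across 3 microarrays of rat cerebellar cortex. A gene belonged to the set if its RefSeq symbol named a sodium channel pore or beta subunit (Scn genes), or a pore, alpha2delta, beta or gamma subunit of the calcium channel family (Cacn genes). RefSeq listed 40 such rat genes, and 39 of them, 13 sodium and 26 calcium, had a probe among the 38973 genes on the arrays. Scn7a had none. Each array held total RNA combined from the cerebellar cortex of 4 male Wistar rats aged 9 weeks, taken on day 2 after surgery. In the operated group the right middle cerebral artery was occluded for a time and then reopened (MCAO), which damages the right forebrain and leaves the cerebellum outside the infarct. The contralateral array held left cortex and the ipsilateral array right cortex from the same 4 rats, and the control array held left cortex from 4 sham-operated rats. The left cerebellar hemisphere is the side connected with the injured forebrain, where blood flow and metabolism can fall at a distance from the lesion, a state called crossed cerebellar diaschisis. With 1 array in each group no test between animals was possible: no p-value is given, every difference is a difference between pools, and both ratios to control share the control array.

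The arrays were 1-colour Agilent expression arrays, on which spots of short DNA probes bind fluorescent copies of the RNA. Values are scaled log2 signals, in which every array has the same 75th percentile, averaged over the spots of a probe and then over the probes of a gene. Of 58717 spots that were not controls, 42470 were well above the scanner's background contralaterally, 43028 ipsilaterally and 43283 on the control array, and none was saturated. A gene is called measured where at least 1 of its probes was well above background on all 3 arrays, and this held for 28 of the 39 channel genes and for 23255 of all genes. The scanner's own error of a ratio, given after ±, was about 0.20 in log2 for a bright probe and more for a dim one, and it holds neither animal nor labelling differences. The number of arrays limits the precision of every value. Levels of different genes are not set against each other, since each probe has its own brightness.

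Voltage-gated sodium channels open within a fraction of a millisecond of depolarization and carry the upstroke of the action potential. Each consists of a large pore-forming alpha subunit and smaller beta subunits that tune its gating and its placement in the membrane. Calcium channels have a related pore subunit, joined by an intracellular beta subunit and an extracellular alpha2delta subunit, and let in the calcium that releases transmitter and shapes firing. In the cerebellum, Purkinje cells fire at high rates with the help of a resurgent sodium current, and their calcium current runs mainly through P/Q-type channels, while granule cells drive them through parallel fibre synapses.

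Most measured channel genes, like most measured genes at large, had nearly the same signal on all 3 arrays. Of the 28 measured genes, 19 lay within 0.25 log2 of control contralaterally and 22 ipsilaterally, or 67.9% and 78.6%, against 70.0% and 65.7% of all measured genes. The R-type calcium channel pore gene Cacna1e was the only measured channel gene past a log2 ratio of 1 in either direction, and it was lower than control on both sides. With a background correction or with 50 added to the signal, Cacna1e was not past that limit on either side. The sodium channel pore gene Scn8a and the alpha2delta gene Cacna2d3 were lower on both sides by smaller amounts, and the sodium channel beta subunit gene Scn4b and the gamma subunit gene Cacng3 were higher on both, except that without scaling their ipsilateral ratios were below 0. Each of these ratios was larger than its scanner error except the ipsilateral ratio of Cacna1e, whose gene mean includes a probe in the background.

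The DNA just upstream of the transcription start is shown for these 5 genes, chosen after their values were seen. As scaled here, Cacna1e was below -1 on both sides, and each of the others passed its scanner error in the same direction on both. A shared direction alone was common: 15 measured channel genes lay above 0 on both sides and 8 below 0 on both. The sequences are RefSeq's (build GRCr8), read 5′ to 3′ on the strand of the gene, and hold the 250 bases before the annotated start. Capitals mark any match, on either strand, to the motif of Sp factors with the letters GGGCGG (the GC box), to the promoter motif spelled CCAAT, to the start-site motif spelled TATAAA, to the core of the cAMP response element with the letters TGACG, to the E-box spelled CACGTG or to the glucocorticoid response element, which has the letters AGAACA at its core.
Cacna1e (chr13:69444811-69445060, minus strand): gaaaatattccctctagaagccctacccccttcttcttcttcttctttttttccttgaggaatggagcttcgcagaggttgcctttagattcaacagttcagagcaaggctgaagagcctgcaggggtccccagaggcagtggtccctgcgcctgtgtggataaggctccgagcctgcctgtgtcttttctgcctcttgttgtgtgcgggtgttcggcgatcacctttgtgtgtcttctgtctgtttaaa
Scn8a (chr7:133860977-133861226, plus strand): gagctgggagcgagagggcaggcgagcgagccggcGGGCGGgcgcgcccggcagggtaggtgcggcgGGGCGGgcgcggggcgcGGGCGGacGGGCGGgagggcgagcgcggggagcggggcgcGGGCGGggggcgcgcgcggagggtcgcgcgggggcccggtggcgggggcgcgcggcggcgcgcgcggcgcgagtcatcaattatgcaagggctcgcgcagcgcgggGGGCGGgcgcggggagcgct
Cacna2d3 (chr16:4918900-4919149, minus strand): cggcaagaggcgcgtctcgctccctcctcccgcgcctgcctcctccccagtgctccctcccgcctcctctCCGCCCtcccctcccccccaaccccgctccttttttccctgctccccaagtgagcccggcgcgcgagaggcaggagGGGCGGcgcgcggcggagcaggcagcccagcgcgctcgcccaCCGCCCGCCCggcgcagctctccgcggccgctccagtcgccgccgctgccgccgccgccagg
Scn4b (chr8:54343623-54343872, plus strand): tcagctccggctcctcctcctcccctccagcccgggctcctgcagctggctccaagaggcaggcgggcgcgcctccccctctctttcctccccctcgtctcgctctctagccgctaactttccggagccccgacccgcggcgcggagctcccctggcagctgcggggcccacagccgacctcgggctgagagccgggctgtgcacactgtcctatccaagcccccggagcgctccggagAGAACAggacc
Cacng3 (chr1:186632312-186632561, plus strand): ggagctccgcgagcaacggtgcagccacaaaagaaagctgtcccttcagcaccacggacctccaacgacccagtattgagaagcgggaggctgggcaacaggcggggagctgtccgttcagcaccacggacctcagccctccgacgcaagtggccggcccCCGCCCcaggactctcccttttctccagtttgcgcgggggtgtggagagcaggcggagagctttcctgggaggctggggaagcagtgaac
The Cacna1e window held none of the 6 motifs, and 51.2% of its bases were G or C. The Scn8a window, with 86% G or C, held 6 GC boxes, that of Cacna2d3 held 4, of which 2 overlap, and that of Cacng3 held 1. The only match in the Scn4b window was the glucocorticoid core that lies close to the start. RefSeq's table had such a window for 27 of the 40 channel genes and for 33465 genes in all. A GC box was present in 13 of the 27, or 48.1%, against 30.5% of all windows, and CCAAT in 4, or 14.8%, against 34.0%. The start-site motif was found in 2 windows (7.41%, against 12.9% of all), cAMP cores in 4 (14.8%, against 18.2%) and glucocorticoid cores in 3 (11.1%, against 17.5%), while no channel window held the E-box that 5.59% of all windows had. The median G and C content was 62.8% in channel gene windows and 51.2% in all. A match is a run of letters and was not tested as a binding site.

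The tissue label was checked against marker genes, first those that define the cerebellar cortex. All 6 granule cell markers were measured, with a median log2 ratio of -0.081 and -0.079 on the contralateral and ipsilateral sides. Cbln1, the synaptic organizer that granule cells release, was the brightest of them, and the summed signals were 70420, 70920 and 73850 contralaterally, ipsilaterally and in the control. Brightest refers to the signal of a probe and not to the abundance of an RNA, and the summed signal of a list follows its brightest probes. Gabra6 had the highest ratios (0.15 and 0.23), Zic1 the lowest contralaterally (-0.19) and Neurod1 the lowest ipsilaterally (-0.17). All 8 Purkinje cell markers were measured, with medians of 0.14 and 0.11, Itpr1 as the brightest and summed signals of 216936, 215847 and 197164. Itpr1 (0.22) and Pvalb (0.26) had the highest Purkinje ratios contralaterally and ipsilaterally, and the glutamate transporter gene Slc1a6 the lowest (-0.057 and -0.077). Markers of both principal neurons of the cortex were thus well above background on all 3 arrays. In pooled tissue, fewer cells of a type and less RNA per cell cannot be told apart.

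Some markers of adjoining tissues and of microglia had ratios past 1 or -1. Of 5 choroid plexus markers 4 were measured, and their summed signals were 10094, 75692 and 33208, with Ttr the brightest. Ttr had a ratio of -1.73 contralaterally and 1.19 ipsilaterally, Kcne2 the highest contralateral ratio of the list (-0.21) and Clic6 the lowest ipsilateral (-0.31), while Kl was above background on the ipsilateral and control arrays alone. All 4 leptomeningeal markers were measured, with summed signals of 5481, 7714 and 10054 and Col1a2 the brightest, and their ratios ran from -1.26 for Col1a1 to -0.033 for Dcn contralaterally and from -0.63 for Lum to 0.23 for Dcn ipsilaterally. Among forebrain neuron markers, Nrgn had 7.35, 5.31 and 5.52 contralaterally, ipsilaterally and in the control, a ratio of 1.83 contralaterally and -0.21 ipsilaterally, whereas Neurod6, the brightest, had -0.054 and 0.056 and Tbr1 was above background on no array. The summed forebrain signals were 1170, 1127 and 1091. The microglial gene Cx3cr1, the brightest of 4 measured microglial markers (summed signals 4294, 5414 and 3569), had ratios of 0.78 and 1.27, and Aif1 the lowest of that list (-0.29 and -0.097). What part these tissues have in the channel ratios was not tested.

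Markers of other cells were read in the same way. All 6 markers of Bergmann glia and astrocytes were measured, with medians of -0.072 and -0.14, Aqp4 as the brightest and summed signals of 43383, 45030 and 54776. Gdf10 was highest (0.39 and 0.27) and Gfap lowest (-0.73 and -0.66) on both sides. The 6 oligodendrocyte markers, summing to 44047, 45670 and 46851, had medians of -0.13 and -0.12, between -0.47 for Cnp and 0.28 for Mobp contralaterally and between -0.48 and 0.24 ipsilaterally. Their 3 precursor markers summed to 3147, 3224 and 3045, with Cspg4 the brightest and the lowest in ratio (-0.046 and -0.0055), Olig2 the highest contralaterally (0.16) and Pdgfra ipsilaterally (0.14). Of 3 endothelial markers, all measured, Slco1c1, the brightest, had the lowest ratios (-0.29 and -0.21) and the highest were those of Cldn5 contralaterally (-0.19) and Pecam1 ipsilaterally (-0.10), with summed signals of 4328, 4539 and 5124. The 3 smooth muscle markers summed to 707, 740 and 816, with Tagln the lowest (-0.35 and -0.17), Myh11 the highest contralaterally (-0.079) and Acta2 ipsilaterally (-0.10). Of 4 brainstem and deep nuclear markers on the arrays 2 were measured, Slc6a5 (0.12 and 0.13) and Slc17a6 (-0.022 and -0.53), and the list summed to 1192, 1018 and 1154 contralaterally, ipsilaterally and in the control. Tph2 was above background on both MCAO arrays and not on the control, and Chat on none.

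Counted over all 39 channel genes, whether above background or not, 1 gene had a contralateral over control log2 ratio above 1, against 4.7% of all 38973 genes, and 4 had a ratio below -1, against 6.48%. On the ipsilateral side 2 genes were above 1, against 13.4% of all genes, and 1 was below -1, against 3.14%. Between the sides, 1 gene was above 1 contralateral over ipsilateral, against 1.85%, and 5 were below -1, against 13.4%. Cacna1e is counted as lower on both sides, the other contralateral ratios below -1 were those of Scn9a, Cacng1 and Cacng4, and the ipsilateral ratios above 1 those of Scn11a and Cacna1s. Between the sides, Scn4a, Scn9a, Scn11a, Cacna1s and Cacng4 were below -1. Apart from Cacna1e, each gene in these counts had its only probe in the background on at least 1 of the 3 arrays, so that its ratio has no value of its own. The 6 counts made up 2.56%, 10.3%, 5.13%, 2.56%, 2.56% and 12.8% of the 39 genes, and at 1 to 5 genes each nothing particular to the channel genes can be read from them. Other scalings changed the balance of calls over all genes: 42.1% of the contralateral and 81.0% of the ipsilateral calls were higher than control as scaled here, and 51.1% and 54.1% after quantile normalization, as against 35.9% and 67.2% with spike-in scaling, 31.3% and 43.9% with none. Of the contralateral over ipsilateral calls 12.2% were higher, and 46.1% after quantile normalization and 29.0% without scaling.

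Among the 28 measured channel genes no ratio exceeded 1 in any comparison. The share of all 23255 measured genes that did so was 1.5% contralaterally, 3.47% ipsilaterally and 0.245% contralateral over ipsilateral. Below -1 stood 1 of the 28 contralaterally (1.04% of measured genes), 1 ipsilaterally (0.873%) and none between the sides (1.97%), and the 1 gene was Cacna1e both times. With a background correction and with 50 added to the signal, none of the 28 stood below -1 on either side. The median ratio of the 28 was 0.073 on the contralateral side, against 0.010 for all measured genes, and 0.038 on the ipsilateral side, against 0.034. Contralateral over ipsilateral it was 0.057, against -0.014. Over all 39 genes the medians were 0.040, 0.050 and 0.0025, against 0.039, 0.13 and -0.11 for all genes. A ratio larger than its scanner error was seen in 10 of the 28 contralaterally, or 35.7% (all measured genes 32.1%), and in 5 ipsilaterally, or 17.9% (all 36.3%).

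**Figure D1:**
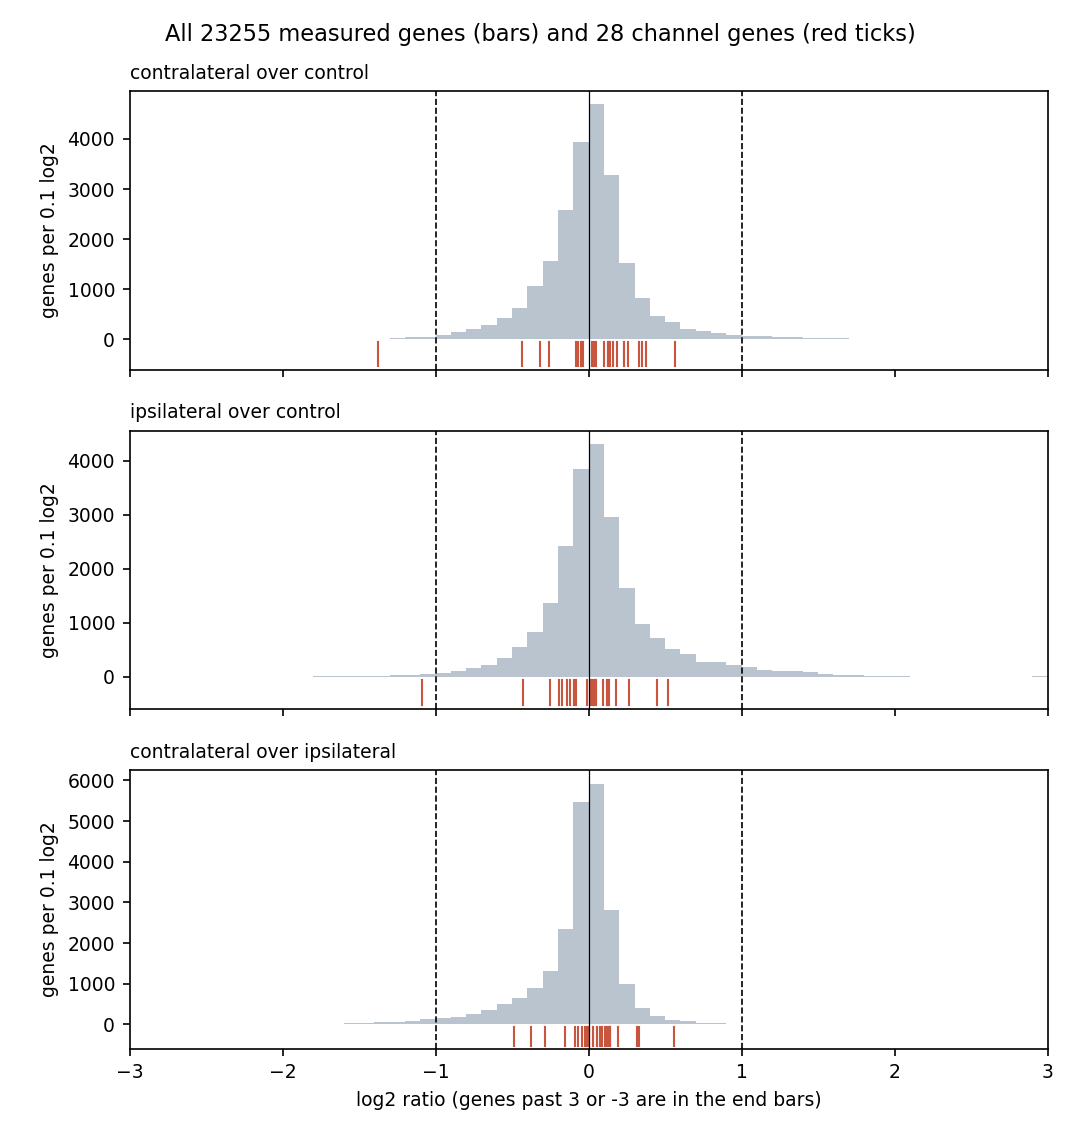
Number of measured genes (bars, 23255 genes, in steps of 0.1 log2) by log2 ratio for contralateral over control, ipsilateral over control and contralateral over ipsilateral, with a red tick for each of the 28 measured channel genes and dashed lines at 1 and -1. The ticks lie within the bulk of all genes except for Cacna1e, left of -1 in both ratios to control.

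The sodium channel pore genes were taken first. Scn8a encodes the channel that clusters at the axon initial segment and at nodes of Ranvier and carries much of the resurgent current of Purkinje cells. Its signal was 7.79 on the contralateral, 7.68 on the ipsilateral and 8.11 on the control array, below control on both sides, with ratios of -0.32 ± 0.20 and -0.43 ± 0.21, or 0.801 and 0.742 of the control level. Both of its probes were lower on both sides: the brighter had 7.94, 7.87 and 8.41 (contralateral, ipsilateral, control), the other 7.64, 7.49 and 7.81. Their ratios were -0.47 and -0.54 for the brighter, and -0.17 and -0.32 for the other, whose contralateral difference did not exceed its scanner error. All 4 readings thus lay below control, and they did so under each of 11 processing settings in the gene mean.

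The other pore genes of central neurons had ratios above 0, which turned below 0 ipsilaterally under 2 (Scn1a), 5 (Scn2a) and 3 (Scn3a) of 11 processing settings and contralaterally under 1 for Scn2a. Scn1a, a main channel of inhibitory interneurons and Purkinje cells, had 11.06 contralaterally, 11.00 ipsilaterally and 10.88 in the control, with ratios of 0.18 ± 0.20 and 0.13 ± 0.20. Scn2a, found in unmyelinated axons such as the parallel fibres, had 12.55, 12.45 and 12.42 on the same arrays, with ratios of 0.13 ± 0.20 and 0.024 ± 0.20. Neither gene differed from control by more than the scanner error. Scn3a, the channel that is most abundant before birth, had 5.95, 5.76 and 5.62, with ratios of 0.33 ± 0.25 and 0.13 ± 0.26. Its contralateral ratio exceeded the error, and both of its probes were above control there, at 0.30 and 0.35. On the ipsilateral side those probes had -0.0081 and 0.27. Scn3a and Scn2a are neighbours in the genome, as are Scn1a and Scn9a, and so are Scn2b and Scn4b.

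The channels of skeletal muscle and peripheral sensory neurons were at the edge of detection. Scn4a, the skeletal muscle channel, was above background on the ipsilateral array alone, with 4.40 there and 3.28 and 3.44 on the contralateral and control arrays. For such a gene only a bound can be given, the bright signal against the higher of the dim array's lowest signal well above background (3.19, 3.63 and 3.12 contralaterally, ipsilaterally and in the control) and the dim probe's own. For Scn4a the dim probe's own signal was the higher on both dim arrays, so its bounds equal the plain ratios and are not lower limits. They were 1.95-fold ipsilaterally over control and 2.18-fold ipsilaterally over contralateral, with scanner errors of 0.42 and 0.46 log2. The latter ranged from 1.35 to 2.18 over 9 processing settings. Scn11a, a sensory neuron channel, also passed on the ipsilateral array alone (3.83, against 1.80 contralaterally and 1.92 in the control), at least 1.63-fold over control and at least 1.56-fold over contralateral, with a range of 1.02 to 1.56 for the latter. The sensory neuron genes Scn9a and Scn10a were not well above background on any array. Each of these 4 genes rested on a single spot.

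Markers of muscle and of sensory neurons were read beside these genes. Of 4 skeletal muscle markers on the arrays, Ckm (0.19 contralateral and 0.64 ipsilateral over control) and Tnnt3 (-0.57 and -0.092) were measured, Acta1 was above background on the control array alone and Myh2 on none, and the summed signals were 54.3, 75 and 62.9. Sensory neuron markers summed to 95.4, 97.1 and 95.5 and the ratios of Prph were -0.066 and -0.28, while Trpv1 was above background on the contralateral and control arrays alone. Whether either tissue contributed to the dim sodium channel signals was not tested.

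The sodium channel beta subunit genes were considered next. Scn4b encodes the subunit whose cytoplasmic tail can block the open pore and so give rise to the resurgent current of Purkinje cells. It had 11.89 contralaterally, 11.80 ipsilaterally and 11.54 in the control, with ratios of 0.35 ± 0.20 and 0.26 ± 0.20, that is 1.28-fold and 1.20-fold. Its probe had 2 spots on each array, and both control spots (highest 11.60) lay below all 4 spots of the MCAO arrays (lowest 11.76). Scn4b thus stood above control (ipsilaterally below it without scaling), while Scn8a, the pore gene linked with the same current, stood below it.

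Scn2b, which is linked to the pore by a disulfide bond, had 11.02, 11.17 and 10.99 on the same arrays and ratios of 0.031 ± 0.21 and 0.18 ± 0.21. Of its probes the brighter was spotted 10 times on each array and had 15.29, 15.28 and 15.10, with an SD over the spots of 0.056, 0.062 and 0.056. As scaled here, the spots of the control array ran from 15.02 to 15.22 and those of the contralateral array from 15.21 to 15.40, nearly without overlap. Over 9 processing settings the ratio of this probe ran from 0.029 to 0.21 contralaterally and from -0.36 to 0.19 ipsilaterally, so the separation depends on the scaling. The brighter probe's ratios as scaled here were 0.18 and 0.17, and those of the dimmer probe -0.12 and 0.19, so the probes disagreed on the contralateral side. Scn3b had 8.51, 8.18 and 8.37, above control contralaterally (0.13 ± 0.20, below 0 without scaling) and below it ipsilaterally (-0.19 ± 0.20). Neither ratio exceeded the error, but the contralateral over ipsilateral ratio of Scn3b did (0.33 ± 0.20) and its 2 spots per array ran from 8.48 to 8.53 contralaterally, from 8.175 to 8.177 ipsilaterally and from 8.36 to 8.38 in the control.

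**Figure D2:**
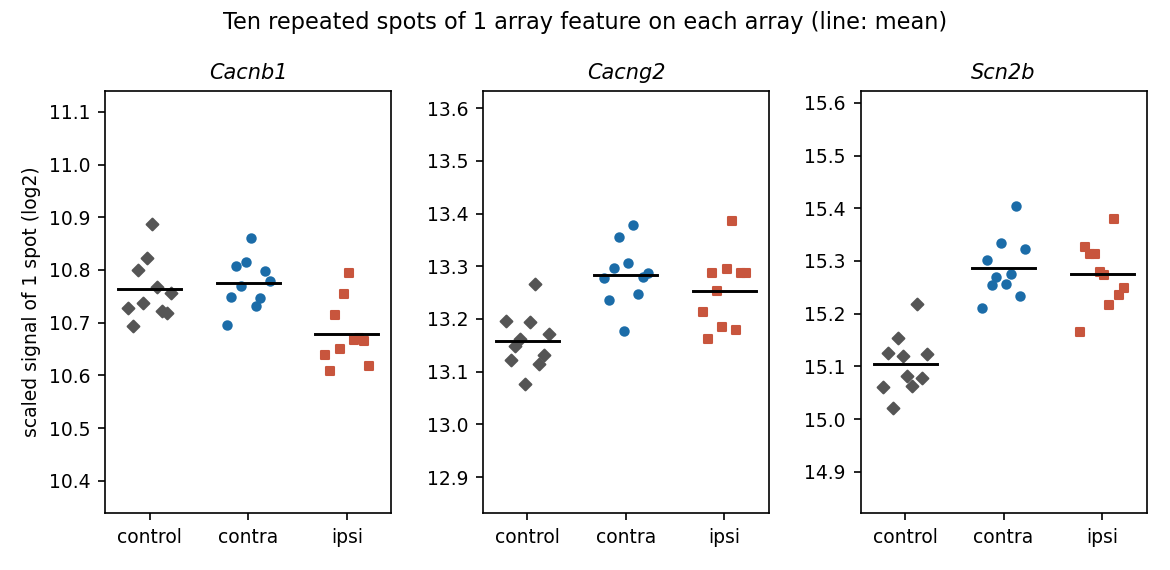
Scaled log2 signal of each of the 10 spots of 1 probe on the control, contralateral (contra) and ipsilateral (ipsi) array for Cacnb1, Cacng2 and Scn2b, with a black line at the mean and a vertical axis of the same length in each panel. As scaled here, the control spots of Scn2b lie almost wholly below those of both MCAO arrays, those of Cacng2 overlap them partly, and those of Cacnb1 overlap the contralateral spots. Such distances between arrays depend on the scaling, and the spots are repeats on 1 array and not animals.

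Of the presynaptic calcium channel pores, Cacna1e differed most. It encodes the R-type channel, which adds to presynaptic and dendritic calcium entry. The gene had 3.32 contralaterally, 3.61 ipsilaterally and 4.70 in the control, with ratios of -1.37 ± 1.09 and -1.09 ± 1.09, the wide error coming from a probe that was not well above background on any array. Its other probe, a single spot, was measured on all 3 arrays and had 5.66, 5.78 and 6.81, a ratio of -1.15 ± 0.21 contralaterally and -1.03 ± 0.22 ipsilaterally. The MCAO arrays lay close together (-0.12 ± 0.23 contralateral over ipsilateral) and apart from the control. The size depended on the background: over 11 processing settings the gene's ratio ran from -1.53 to -0.27 contralaterally and from -1.62 to -0.0055 ipsilaterally, nearest to 0 with a background correction that adds an offset of 50. That of the measured probe, taken relative to the median measured gene, ran from -1.16 to -0.68 and from -1.07 to -0.50 over 9 settings.

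The other pores of this group were level. Cacna1a encodes the P/Q-type channel, the main calcium channel of Purkinje cells and of parallel fibre terminals, and its loss of function causes ataxia. It had 6.84, 6.77 and 6.89 contralaterally, ipsilaterally and in the control, with ratios of -0.046 ± 0.21 and -0.12 ± 0.21. Cacna1b, the N-type pore of many synaptic terminals, had 8.31, 8.17 and 8.27, with ratios of 0.040 ± 0.21 and -0.097 ± 0.21. Both genes were within the scanner error on both sides, and in both the probes differed in sign contralaterally.

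The L-type pores couple depolarization to gene regulation in neurons and to contraction in muscle. Cacna1d had 6.46, 6.14 and 6.22 contralaterally, ipsilaterally and in the control, a ratio of 0.23 ± 0.21 contralaterally and -0.081 ± 0.22 ipsilaterally, and 0.31 ± 0.22 between the sides. Cacna1c had 5.09, 5.47 and 4.95, with ratios of 0.14 ± 0.41 and 0.52 ± 0.44, but its 3 probes gave different pictures. The brightest had 7.70, 7.61 and 7.54 and was level (0.16 ± 0.21 and 0.069 ± 0.21). The next had 4.40, 5.53 and 4.52 and was 1.02 ± 0.27 ipsilaterally against -0.12 ± 0.30 contralaterally, and the last was not well above background on any array. The ipsilateral difference of Cacna1c thus rested on a single dim probe. Cacna1s, the voltage sensor of skeletal muscle, passed background on the ipsilateral array alone (3.99, against 1.11 contralaterally and 2.03 in the control), at least 1.82-fold over control and at least 1.74-fold over contralateral, and the retinal gene Cacna1f on none.

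T-type channels open near the resting potential and support rebound and burst firing. Cacna1g, the main T-type pore of Purkinje cells and deep nuclei, had 10.77, 10.77 and 10.72 contralaterally, ipsilaterally and in the control, with ratios of 0.049 ± 0.20 and 0.046 ± 0.20. Cacna1i had 9.25, 9.34 and 9.30, with ratios of -0.049 ± 0.20 and 0.040 ± 0.20. Neither gene differed from control by more than its error. Cacna1h had 4.59 contralaterally, 4.04 ipsilaterally and 4.03 in the control, so that the contralateral array alone was high, with ratios of 0.56 ± 0.31 and 0.0059 ± 0.39 and 0.56 ± 0.37 between the sides. This was the highest contralateral ratio of the 28 genes, from a single spot less than a log2 unit above the lowest measurable signals of the ipsilateral and control arrays.

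**Figure D3:**
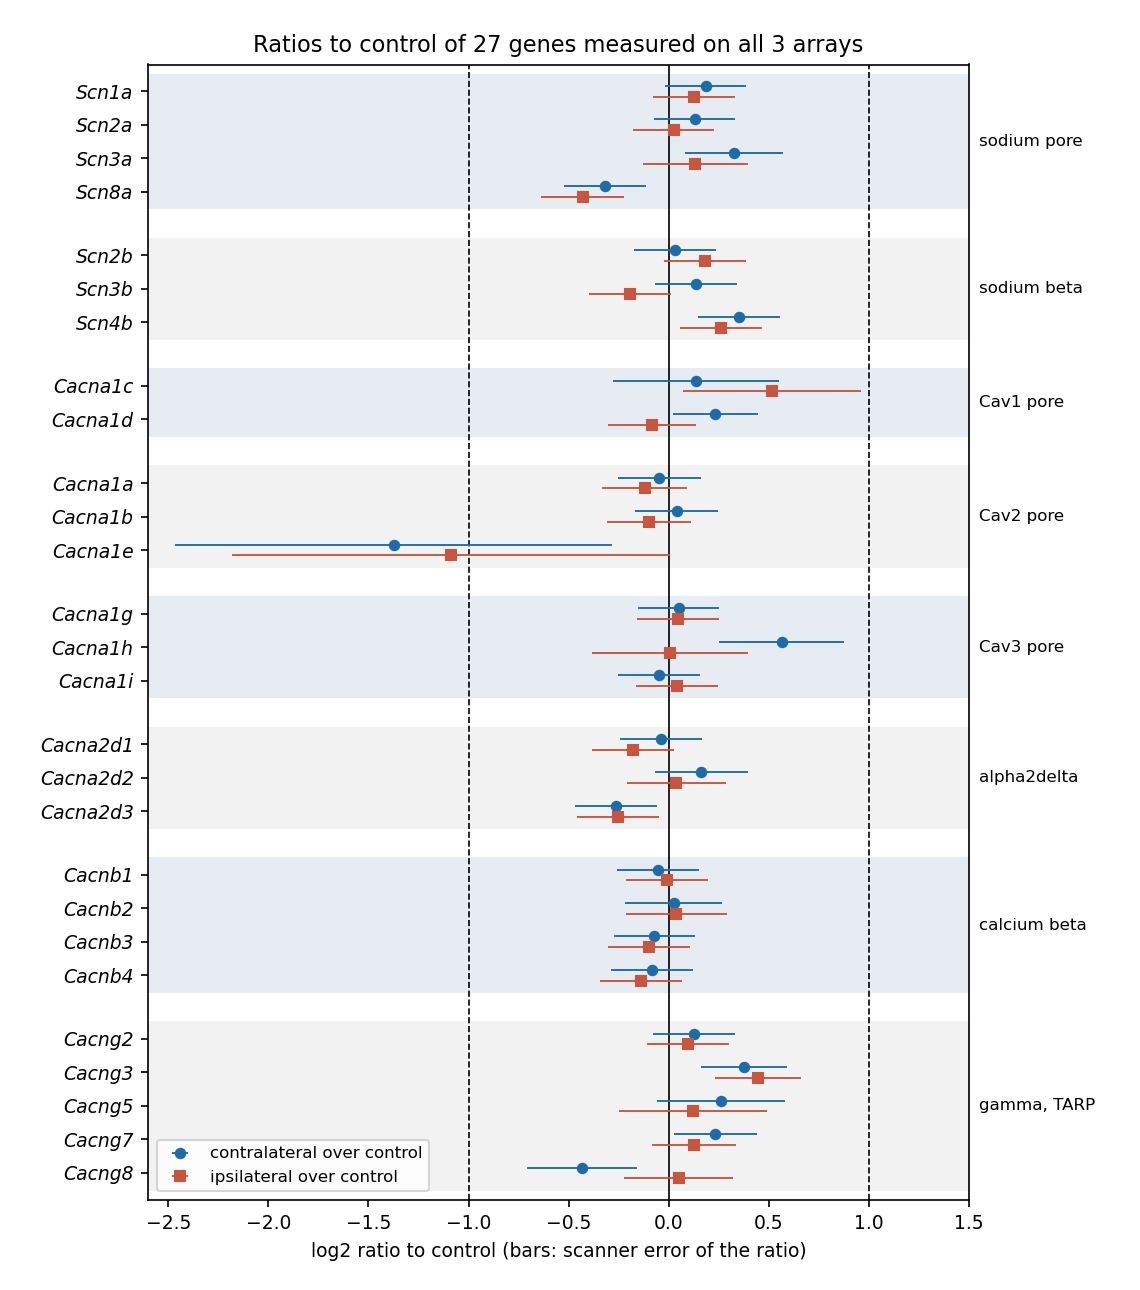
Log2 ratio of the contralateral (blue circles) and ipsilateral (red squares) array to the control array for 27 measured channel genes, ordered by subunit family, with the scanner error of the ratio as bars and dashed lines at 1 and -1. Scn8a, Cacna2d3 and Cacna1e lie below 0 on both sides and Scn4b and Cacng3 above it (ipsilaterally below 0 without scaling), while the 4 calcium channel beta genes stay within their errors.

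The alpha2delta subunits carry calcium channels to the membrane and bind gabapentin-type drugs in the case of Cacna2d1 and Cacna2d2. Cacna2d3 had 7.38, 7.39 and 7.64 contralaterally, ipsilaterally and in the control, and was lower than control by nearly the same amount on both sides (-0.26 ± 0.21 and -0.25 ± 0.21). Cacna2d1 had 11.40, 11.26 and 11.44, with ratios of -0.039 ± 0.20 and -0.18 ± 0.20, and its 2 probes gave -0.20 and -0.15 ipsilaterally. Cacna2d2, the alpha2delta gene of Purkinje cells, had 5.41, 5.29 and 5.25, with ratios of 0.16 ± 0.23 and 0.038 ± 0.25. Of the 3 measured genes only Cacna2d3 passed its error, and Cacna2d4, known mainly from the retina, was not well above background on any array.

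The beta subunits bind the pore inside the cell and promote its transport to the membrane, and Cacnb4 is the form most abundant in cerebellum. It had 8.38, 8.32 and 8.46 contralaterally, ipsilaterally and in the control (-0.083 ± 0.20 and -0.14 ± 0.20). Cacnb3 had 12.83, 12.81 and 12.90 (-0.072 ± 0.20 and -0.097 ± 0.20). Cacnb2 had 7.57, 7.58 and 7.55 (0.025 ± 0.24 and 0.037 ± 0.25). The mean of Cacnb2 joins probes that disagree contralaterally, one at 0.22 ± 0.20 and the other at -0.17 ± 0.27. As scaled here, all 8 ratios of the 4 beta genes to control were inside the scanner error of the gene mean. Cacnb1, the partner of the skeletal muscle channel that is also made in brain, had 9.10, 9.14 and 9.15 (-0.052 ± 0.20 and -0.010 ± 0.21), and its probe with 10 spots per array had 10.78, 10.68 and 10.76 with an SD over the spots of at most 0.060.

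Most gamma subunits act less on calcium channels than as TARPs, proteins that carry AMPA-type glutamate receptors to the synapse and slow their closing. Cacng2 encodes stargazin, whose loss deprives granule cells of surface AMPA receptors and causes ataxia in stargazer mice. Its single probe, spotted 10 times per array, had 13.28 contralaterally (spot SD 0.057), 13.25 ipsilaterally (0.069) and 13.16 in the control (0.053), with ratios of 0.13 ± 0.20 and 0.095 ± 0.20. As scaled here, the differences were larger than the SD over spots within an array and smaller than the scanner error of a ratio. Cacng3, a TARP of forebrain neurons above all, had 6.47, 6.54 and 6.09, both MCAO arrays above the control save for the ipsilateral one without scaling (0.38 ± 0.21 and 0.45 ± 0.21, or 1.30-fold and 1.36-fold). The forebrain marker Nrgn, in contrast, was high on the contralateral array alone.

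Cacng7, a TARP of Bergmann glia and Purkinje cells, had 7.05, 6.94 and 6.82 contralaterally, ipsilaterally and in the control (0.23 ± 0.21 and 0.13 ± 0.21). Cacng5 had 4.25, 4.11 and 3.99 (0.26 ± 0.32 and 0.12 ± 0.37). Of this pair, Cacng7 passed its error contralaterally and Cacng5 on neither side. Cacng8, next to Cacng7 in the genome, had 4.23, 4.72 and 4.67, low on the contralateral array alone, with ratios of -0.43 ± 0.27 and 0.050 ± 0.27 and -0.48 ± 0.29 between the sides, from a single dim spot. The skeletal muscle subunit gene Cacng1, its relative Cacng6 and the TARP gene Cacng4 were not well above background on any array.

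**Figure D4:**
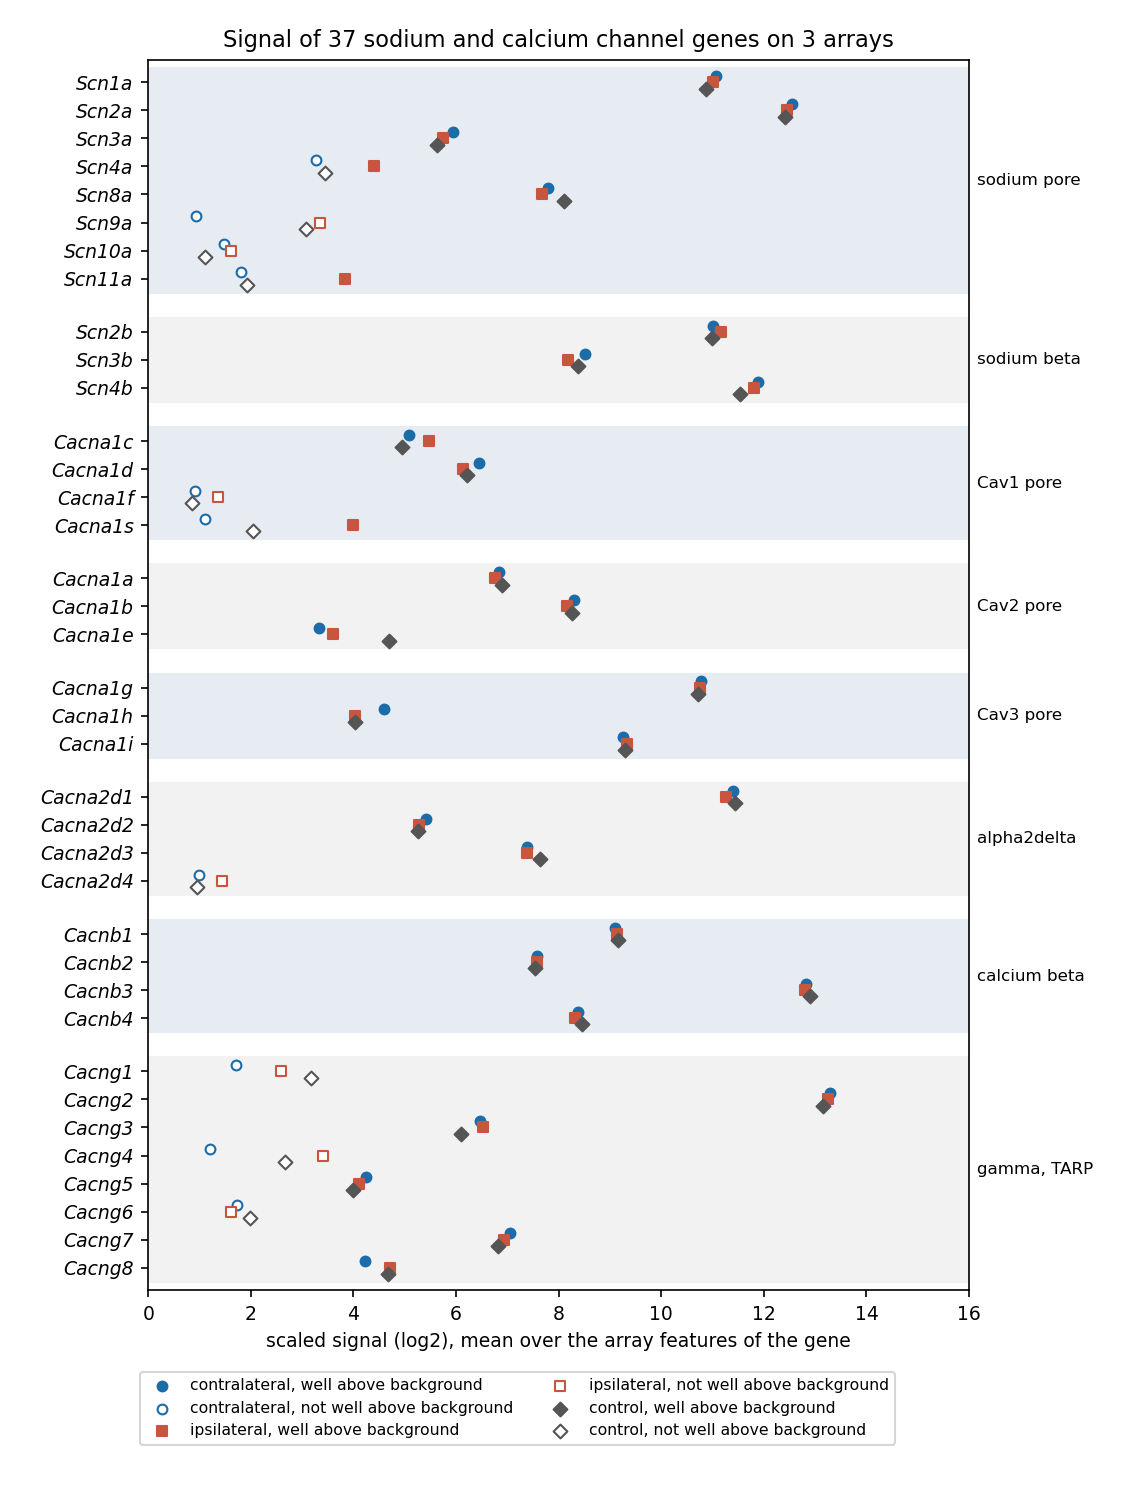
Scaled log2 signal of 37 channel genes on the contralateral (circles), ipsilateral (squares) and control (diamonds) array, as the mean over the probes of a gene, grouped by subunit family, with filled symbols where at least 1 probe was well above background and open symbols where none was. Symbols are to be compared within a gene and not between genes. The measured genes have closely placed symbols apart from Cacna1e, and open symbols are found in 10 genes, of which 3 (Scn4a, Scn11a and Cacna1s) also have a filled symbol.

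Set directly against each other, contralateral over ipsilateral, the sides differed by more than the scanner error in 4 genes, with Scn3b, Cacna1d and Cacna1h higher contralaterally and Cacng8 lower. Scn3b and Cacng8 kept these signs under all 11 settings, whereas Cacna1h was lower contralaterally under 2 (to -0.14) and Cacna1d under 1 (-0.021). The 4 genes are 14.3% of the 28, against 22.9% of all measured genes. All 4 measured sodium channel pore genes were higher contralaterally than ipsilaterally, by 0.056 (Scn1a), 0.10 (Scn2a), 0.11 (Scn8a) and 0.19 (Scn3a), each inside its scanner error. Of all 28 measured channel genes, 18 were higher contralaterally. Among the 4 pore genes only Scn3a changed sign with the processing, falling below 0 under 2 of 11 settings. Probes of the same gene set the scale of what a single probe can show. In the 11 genes with more than 1 measured probe, the probes had the same sign contralaterally in 4 (Cacna2d1, Scn2a, Scn3a and Scn8a) and ipsilaterally in 7, and the median gap between their ratios was 0.27 and 0.14 log2, up to 0.95 for Cacna1c. Most ratios of single-probe genes were smaller than such gaps.

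Genes whose products work with the channels were as even. Of the sodium channel partners, 13 were on the arrays and 12 measured, none of these past 1 or -1 on either side, with medians of -0.012 and -0.065. The extremes were the adhesion phosphatase gene Ptprz1 (0.096 ± 0.20) and Fgf14 (-0.31 ± 0.21) contralaterally and Fgf13 (0.085 ± 0.20) and the matrix gene Tnr (-0.34 ± 0.20) ipsilaterally, where Fgf13 and Fgf14 encode cytoplasmic factors that bind the sodium channel tail. Of the calcium channel partners, 19 were on the arrays and 16 measured, with none of these called, and medians of 0.054 and 0.13. Rem2, a small GTPase that inhibits calcium channels through the beta subunit, had 5.40, 5.71 and 6.04 contralaterally, ipsilaterally and in the control and the lowest contralateral ratio (-0.64 ± 0.23, ipsilaterally -0.33 ± 0.23). Among partners with every probe measured, the calmodulin gene Calm3 was highest contralaterally (0.22 ± 0.20), and ipsilaterally Rrad, a relative of Rem2, was highest (0.27 ± 0.23) and the active zone gene Rims1 lowest (-0.40 ± 0.21). With a probe in the background, the kinase gene Camk2a had 0.31 ± 0.35 and 0.54 ± 0.37, and Camk2b had 0.11 ± 0.33 and 0.44 ± 0.29. Stac3, an adaptor of the skeletal muscle channel, had 2.93, 4.38 and 4.01 contralaterally, ipsilaterally and in the control, and was not well above background contralaterally, so that its ratios of -1.07 to control and -1.45 between the sides have no value of their own.

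All 6 AMPA receptor subunit and cornichon genes on the arrays were measured, none was called, and the medians were -0.0021 and -0.090. Their ratios ran from -0.049 for Gria4 to 0.12 for Cnih2 contralaterally and from -0.14 for Gria3 to 0.091 for Cnih2 ipsilaterally, so that the receptors TARPs serve lay nearer to 0 than Cacng3 on both sides. Of related cation channels outside the set, 4 were on the arrays and 3 measured, with medians of 0.099 and -0.026: Unc79, of the sodium leak channel complex, had 0.13 contralaterally, the highest, and -0.27 ipsilaterally, the lowest, Tpcn1 was lowest contralaterally (-0.051) and Catsper2 highest ipsilaterally (0.063).

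The ratios depend on how the arrays were brought to a common scale. The median of all genes on the ipsilateral side was 0.13 as scaled here, -0.40 without scaling and 0.34 with a background correction. The median of all measured genes moved from 0.034 to -0.50 on the ipsilateral side without scaling and to -0.22 with scaling on 8 spike-in probes, and on the contralateral side from 0.010 to -0.14 and -0.074. Ratios taken relative to that median cannot differ between settings that only shift an array by a constant (no scaling, median or spike-in scaling, the deposited values). For Cacna2d3, Scn4b and Cacng3, with a single probe each, the choice of probes and the outlier spots can act only through that median. With the brightest probe of each gene it was 0.016 contralaterally, against 0.010 as scaled here. Under quantile normalization, the background correction and 50 added to the signal, which can alter any gene, the 5 genes named at the outset kept their direction relative to that median. Scn8a ran from -0.49 to -0.28 contralaterally and from -0.58 to -0.39 ipsilaterally, Cacna2d3 from -0.28 to -0.21 and from -0.31 to -0.22. Scn4b ran from 0.25 to 0.34 contralaterally and from 0.092 to 0.24 ipsilaterally, Cacng3 from 0.12 to 0.39 and from 0.26 to 0.45. Taken on their own, the ipsilateral ratios of Scn4b and Cacng3 were each below 0 under 1 setting, that without scaling, where all 28 measured channel genes were below control on that side.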

How the data were processed

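Labelled RNA from 3 pools of 4 rats, for the contralateral, ipsilateral and control cortex, was scanned on 1-colour Agilent arrays, 1 array a group. The authors extracted the spot intensity with Agilent Feature Extraction 12.1.0.3, and the deposited intensity is the background-subtracted processed signal. The deposited value table holds that signal times 1 factor per array (1.12, 1.45 and 1.04). Of 58717 spots that were not controls, 759 that the scanner software had marked as outliers were left out, none of a channel gene. The log2 signals of an array were moved by a constant to make the 75th percentile equal on all 3, then averaged over spots and over probes. Probes were joined to genes through RefSeq accessions: 17622 of 39957 accessions matched, and an accession without a match counted as a gene of its own. A gene was called where its log2 ratio was above 1 or below -1. The scanner's error per spot was carried through to each ratio. The tools were pandas 2.3.3, numpy 2.4.6, matplotlib 3.10.9 and scipy 1.17.1 under Python 3.11.15, and limma 3.58.1 under R 4.3.3 for 1 alternative, and the procedure was tested on simulated data.

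By rule, measured channel genes are named with their signals and ratios and others by a bound or as not well above background, and 37 of the 39 are shown this way. Counts and medians are over all of them. Of each other list the rule names, with a few left out of the text, the genes with the highest and lowest ratio to control on each side among those with every probe measured, any gene past 1 or -1, and, for cell types, the gene with the brightest signal and the summed signal. The members and lists were chosen with earlier results of these data known. Alternatives were no scaling, median scaling, spike-in scaling, quantile normalization, the normexp background correction of limma with an offset of 50, 50 added to the signal, the deposited values, measured probes only, the brightest probe of a gene, outlier spots kept, and a filter on dim genes. The error covers scanning alone, and no test between animals was possible.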

Additional observations from a re-analysis of the deposited data

How the results depend on the processing

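Under median scaling, with the deposited values, with the brightest probe of each gene and with outlier spots kept, all 9 counts and medians over the channel genes stayed near their reported values. Among measured channel genes and measured genes of the other lists, no ratio past 1 or -1 changed direction under any of the alternatives. The ratios of dim channel genes past 1 or -1 were not checked for this. With the normexp background correction and with 50 added to the signal, the counts of genes above 1 and below -1 were 0 in all 3 comparisons. With measured probes only, and with the filter to measured genes, which was chosen after seeing the data, the contralateral over control counts were 0 above 1 and 1 below -1. Under the same pair of settings 0 genes were above 1 ipsilateral over control, and contralateral over ipsilateral 0 were above 1 and 0 below -1. Without scaling, 2 genes were below -1 ipsilateral over control, the median ratio was -0.48 ipsilateral over control and 0.38 contralateral over ipsilateral. With spike-in scaling the ipsilateral over control median was -0.20, and with quantile normalization 2 genes were below -1 ipsilateral over control. The cause was not tested, apart from the settings that leave out dim probes, which by construction remove all called genes but Cacna1e.

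The 371 ratios and bounds of single genes cover the channel genes and, for the larger part, measured genes of the other lists. They are thus not counts for the channel genes alone. Of the 371, 133 kept their value within the scanner error without scaling and 238 moved beyond it. With spike-in scaling 265 kept it and 106 moved, with normexp 330 and 41, with 50 added 341 and 30, and with quantile normalization 360 and 11. With median scaling, the deposited values and outlier spots kept, all 371 kept it. The bounds of dim genes also varied. Scn4a ipsilateral over control lay between 1.35-fold and 1.97-fold over 9 settings, Cacna1s between 1.26-fold and 1.84-fold and Scn11a between 1.13-fold and 1.65-fold. Ipsilateral over contralateral, the bound of Scn4a lay between 1.35-fold and 2.18-fold, that of Cacna1s between 1.16-fold and 1.74-fold and that of Scn11a between 1.02-fold and 1.56-fold.

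Signal over background limits what can be read: 11 of the 39 channel genes had no ratio of their own, and the size of the Cacna1e ratio rests on 1 spot. No paired analysis was possible because the groups share only 1 replicate number, and each group is a single pool. Differences between rats, between labelling reactions and between arrays cannot be told apart from differences between groups. The left and right cortex came from the same 4 rats, and the sham group gave left cortex only, so side and surgery cannot be told apart in the ipsilateral over control ratio.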
